A study of Mus musculus with 10 samples.

Results

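Colon crypts of mice with inflammation-driven cancer (AOM+DSS, 3 libraries) were set against crypts of mice with inflammation alone (DSS, 4 libraries), gene by gene. A gene was included where the mean over the libraries of either group was at least 50 normalized reads (reads divided by the size factor of their library), which 12258 of 23364 genes met. Of these, 11490 reached 50 in both groups, 531 in AOM+DSS only and 237 in DSS only.

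All libraries hold poly(A) RNA of crypts shaken in EDTA from the distal colon of the mouse. DSS mice received dextran sulfate sodium, which injures the colonic lining and inflames it. AOM+DSS mice received azoxymethane, a DNA-alkylating carcinogen, and DSS afterwards, and the series describes this state as cancer induced by inflammation. By the labels both groups received DSS and AOM+DSS mice also azoxymethane, and 3 libraries of untreated mice give the level without either agent. An effect of unlike DSS exposure or sampling time could not be told apart from one of azoxymethane. Strain, age, doses, duration and the number of mice per library are not given in the labels, which also do not say whether crypts came from tumours or from the mucosa around them.

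In this mouse model, azoxymethane causes mutations that commonly stabilise beta-catenin, and cycles of DSS injury and repair favour the outgrowth of mutant crypts. Beta-catenin with TCF factors switches on Wnt target genes, among them secreted and intracellular inhibitors of the same pathway, receptors of crypt stem cells and, in the small intestine, products of Paneth cells, the antimicrobial cells at the crypt base that the healthy distal colon lacks. DSS alone raises inflammatory and repair genes, so the comparison asks what the tumour state adds to or loses from inflammation.

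The 7 libraries compared held between 12915580 and 23960601 recovered reads. Libraries are lettered by depth within their group; no letter stands for a replicate number of the labels. The DSS libraries fell into pairs: log2 values correlated at 0.991 between c and d and at 0.971 between a and b, against 0.930 to 0.953 across the pairs (Pearson, over genes of 1 tissue, as a description). The AOM+DSS libraries correlated at 0.976 (a and b), 0.967 (a and c) and 0.934 (b and c). AOM+DSS c was closer to DSS b (0.957), d (0.950) and c (0.946) than to AOM+DSS b, so these whole-library values did not separate the groups. The pairs also differed in how expression moved with GC content of the transcripts (Spearman -0.299 and -0.304 in a and b, 0.331 and 0.348 in c and d, from -0.231 to -0.152 in AOM+DSS). AOM+DSS library c stood apart by smooth muscle and mast cell transcripts, and DSS library a by B and T cell transcripts, as given below. Of the check genes, Hprt had 1849, 2048, 2021 and 2188 normalized reads in DSS a to d and 1996, 2431 and 2235 in AOM+DSS a to c, Actb had 28804, 30561, 44806 and 49311 in DSS and 32037, 34968 and 36310 in AOM+DSS, and Gapdh had 9501, 10283, 14171 and 17791 in DSS and 11623, 13337 and 10006 in AOM+DSS. None of the check genes passed the test (limma, adjusted p = 0.683, 0.851 and 0.857). Epithelial transcripts were abundant in both groups: pan-epithelial genes summed to at least 152590 normalized reads in every library, and the mean of Epcam, an epithelial adhesion molecule, was 28957 in AOM+DSS and 28156 in DSS. No pan-epithelial gene and no absorptive colonocyte gene of the lists was at 0 in any library. This does not single out epithelium, as no listed B, plasma, T or NK cell gene was at 0 in AOM+DSS either.

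Most genes had like levels in both groups, and the changes that passed the test were nearly all increases. The ratio of the AOM+DSS mean to the DSS mean had a median of 0.979, and 86.1% of the included genes lay within 1.5-fold. The ratio was at least 2 for 684 genes, counting 10 with a DSS mean of 0, and at most 0.5 for 280. At 4-fold, 338 genes lay above and 65 below. A linear model across all genes (limma on log2(normalized reads + 1), Benjamini-Hochberg adjustment over all 18364 genes tested, threshold 0.05) called 305 genes higher in AOM+DSS, 1.66% of all tested, and 8 lower, 0.0436%. Among the 12242 included genes that could be tested, 198 were called higher (1.62%) and 8 lower (0.0653%). The 3 AOM+DSS libraries lay wholly above the 4 DSS libraries in 6.87% of them and wholly below in 4.51%. At an unadjusted p under 0.05, 1701 genes of all tested were higher and 602 lower. Of the 198, 139 had a DSS mean under 50 and so entered only through the group in which they were high, and 59 reached 50 in both groups. Of the 8 lower genes, 5 reached 50 in both groups.

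The authors' form of the test, rebuilt from the recovered reads for this pair of groups and added after the data were seen, called 175 genes higher (0.953% of all tested) and 18 lower (0.098%), of which 137 and 3 were also called by limma. Among the included genes it called 158 higher (1.29%) and 18 lower (0.147%).

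These counts rest on few libraries and move with them. Without AOM+DSS c, 266 included genes were called higher and 9 lower. Without any other single library the number higher was between 13 (without AOM+DSS a) and 53 (without DSS c): it was 28 without AOM+DSS b, 36 without DSS a, 37 without DSS b and 44 without DSS d. The number lower was 1 without AOM+DSS b and 0 without AOM+DSS a or any DSS library. Against DSS a and b alone, 3 were higher, and against c and d alone none were. AOM+DSS b had the highest value of its group in 153 of the 198 genes, and AOM+DSS c the lowest in 173. Nothing in the labels says that each library came from its own mouse, so a p-value here measures the spread between these libraries alone, and that spread may be technical. Fewer cells of a type and less RNA per cell cannot be told apart in these data.

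**Figure D1:**
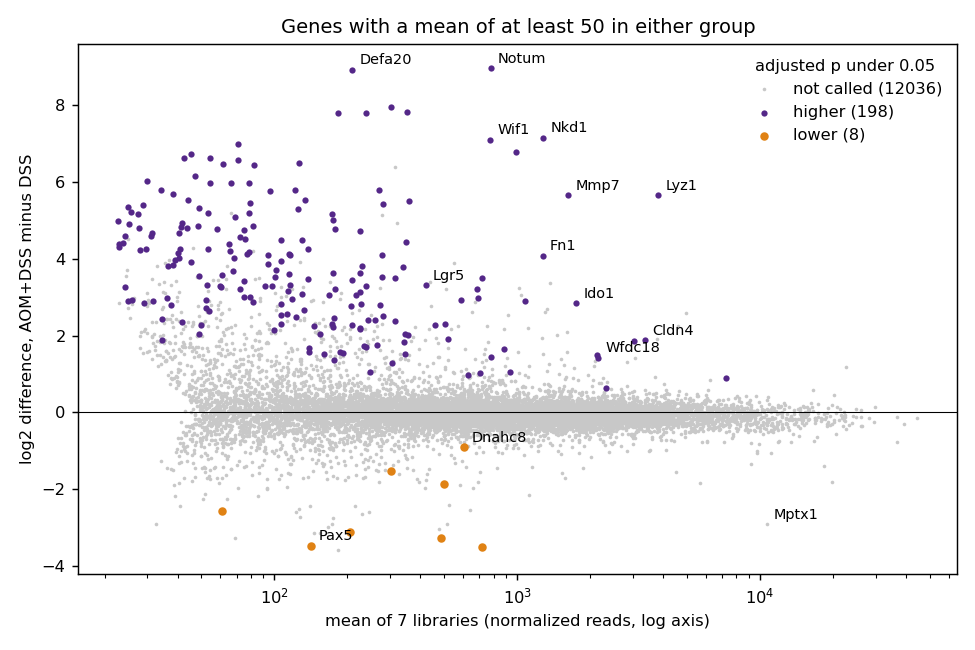
Log2 difference between AOM+DSS and DSS (vertical axis) against the mean over the 7 libraries (horizontal log axis, normalized reads) for the 12242 included genes that were tested. Purple points are the 198 genes called higher in AOM+DSS and orange points the 8 called lower by limma at an adjusted p under 0.05; Notum and Defa20 lie highest, and the called genes lie almost all above 0.

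Inhibitors of Wnt signalling were among the largest differences. Of 21 genes of Wnt antagonists and negative feedback that were tested, 5 were called higher and 0 lower, and the median log2 difference was 1.00 against 0.02 over all genes tested. Notum encodes a secreted enzyme that strips the lipid from Wnt ligands. Its level was 0, 1.65, 4.25 and 6.20 normalized reads in DSS a to d and 1789.9, 2897 and 750.1 in AOM+DSS a to c, a ratio of means of 599 and a log2 difference of 8.96 ± 0.73 (± SE; limma, adjusted p = 0.00108). Control libraries held 6.76, 3.95 and 4.24, so Notum was near absent in every library except those of AOM+DSS. Wif1, which binds Wnt ligands outside the cell, had 14.2, 11.5, 9.91 and 6.20 in DSS and 1984, 2776 and 631 in AOM+DSS, a ratio of means of 172 and a log2 difference of 7.10 ± 0.51 (adjusted p = 8.02e-04). Nkd1, an intracellular inhibitor that acts on Dishevelled, had 11.9, 12.4, 21.2 and 17.1 in DSS and 2936, 5137 and 805 in AOM+DSS, a ratio of means of 189 (7.15 ± 0.56, adjusted p = 9.78e-04). In each of these genes the AOM+DSS libraries were far above the DSS libraries, with c the lowest of the 3.

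The other called antagonists were of the Dickkopf family, whose founding members block the Wnt co-receptors. Dkk2 was covered by 2 reads in all DSS libraries together and stood at 399, 796 and 82.9 normalized reads in AOM+DSS a to c, a difference of 7.80 ± 0.74 (limma, adjusted p = 0.00207). Dkk3 had 12.6, 14.0, 8.496 and 10.9 in DSS and 363, 321 and 178 in AOM+DSS (4.48 ± 0.37, adjusted p = 0.00112). Both were low in every DSS library and higher in every AOM+DSS library. Axin2, the feedback scaffold that is the usual readout of Wnt activity, was already present in inflamed crypts: it had 878, 976, 742 and 783 in DSS, 2191, 3647 and 1348 in AOM+DSS and 1000.2, 958 and 865 in control libraries. Its groups did not overlap and its mean was 2.83-fold higher, but the test was just missed (log2 difference 1.39 ± 0.29, adjusted p = 0.0542; it was 0.0246 without AOM+DSS c and 0.179 to 0.320 without any other single library). The same order without a call was seen in receptor-level inhibitors. Rnf43, which removes Wnt receptors from the surface, had 1156, 1343, 1252 and 1409.9 in DSS and 2424, 3424 and 1457 in AOM+DSS (adjusted p = 0.184; 0.0320 without AOM+DSS c and 0.339 to 0.648 without any other single library). Apcdd1, a membrane inhibitor of Wnt, had 7.11, 19.8, 1.42 and 7.76 in DSS and 323, 1545 and 39.8 in AOM+DSS, with AOM+DSS b far above a and c (adjusted p = 0.0724; 0.0415 without AOM+DSS c and 0.183 to 0.404 without any other single library). The number of antagonists called fell to 2 without AOM+DSS a, was 8 without AOM+DSS c, and was 5 or 6 without any other single library.

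**Figure D2:**
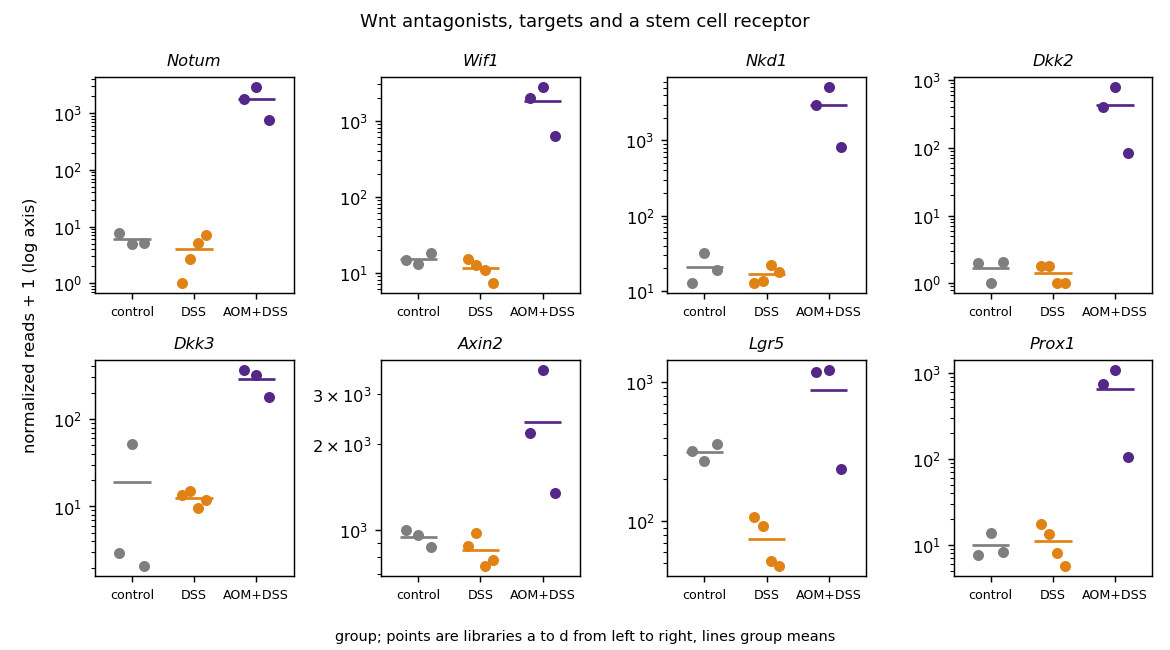
Normalized reads plus 1 (vertical log axis) of 5 Wnt antagonists, the Wnt target Axin2, the stem cell receptor Lgr5 and the transcription factor Prox1 in each library of the control, DSS and AOM+DSS groups; points are libraries and lines group means. Wif1 and Nkd1 are at like low levels in control and DSS and far higher in AOM+DSS, while Axin2 starts from 742 or more in every DSS library, and AOM+DSS c is the lowest AOM+DSS point in each panel.

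Some Wnt ligands and nuclear targets were higher as well. Of 29 ligands, effectors and targets tested, 7 were called higher and 0 lower: Wnt3, Wnt5a, Wnt6, Wnt10a, Sp5, Prox1 and Tnfrsf19, with a median of 0.34 for the whole list, while the authors' form of the test called 1. Wnt5a did not reach a mean of 50 in either group. Wnt10a, a ligand of the canonical pathway, was covered by 3 reads over the DSS libraries and had 144, 139 and 23.2 normalized reads in AOM+DSS (difference 5.54 ± 0.69, limma, adjusted p = 0.00801). Wnt6, another ligand, had 11.1, 14.0, 24.1 and 15.5 in DSS and 229, 337 and 53.03 in AOM+DSS (3.29 ± 0.62, adjusted p = 0.0367). Wnt3, a ligand that Paneth cells supply to stem cells in the small intestine, had 3.95, 2.47, 0 and 0 in DSS and 41.6, 98.4 and 14.4 in AOM+DSS (4.30 ± 0.81, adjusted p = 0.0366).

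Sp5, a zinc finger repressor that beta-catenin switches on directly, had 9.49, 9.06, 15.6 and 10.9 in DSS and 267, 373 and 63.0 in AOM+DSS (3.95 ± 0.60, limma, adjusted p = 0.0167). Prox1, a homeobox factor of lymphatic endothelium and of Wnt-driven colon tumours, had 16.6, 12.4, 7.08 and 4.65 in DSS and 739, 1080.3 and 105 in AOM+DSS (5.43 ± 0.78, adjusted p = 0.0141). Tnfrsf19, a receptor of stem and progenitor cells, had 37.9, 27.2, 14.2 and 20.2 in DSS and 378, 1022 and 103 in AOM+DSS (3.81 ± 0.70, adjusted p = 0.0337). For all 3 genes every AOM+DSS value lay above every DSS value, and AOM+DSS c was again lowest of its group. Tbx3, a T-box factor, and T, the founding T-box factor brachyury, were near 0 in DSS and present in every AOM+DSS library: Tbx3 had 1.58, 4.12, 0 and 1.55 in DSS and 512, 1273 and 318 in AOM+DSS (7.94 ± 0.66, adjusted p = 0.00112), and T had 1 read in DSS and 255, 217 and 23.2 normalized reads in AOM+DSS (6.57 ± 0.80, adjusted p = 0.00672). Sox17, a factor that can antagonise beta-catenin, had 2.37, 3.30, 0 and 0 in DSS and 72.1, 374 and 12.2 in AOM+DSS and narrowly missed the threshold (adjusted p = 0.0540; 0.0372 without AOM+DSS c and 0.169 to 0.320 without any other single library). Of the list of 29, 8 were called without AOM+DSS c and 0 without any other single library.

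Among 18 intestinal stem cell genes tested, 1 was called, Lgr5, and the median difference was 0.42 (the authors' form of the test called 2). Lgr5 encodes the R-spondin receptor that marks cycling crypt stem cells. It had 106, 92.3, 51.0 and 46.5 normalized reads in DSS, 1185, 1219 and 236 in AOM+DSS and 318, 269 and 361 in control libraries, a ratio of AOM+DSS to DSS means of 11.9 and a log2 difference of 3.31 ± 0.58 (limma, adjusted p = 0.0289). The DSS libraries were the lowest of the 3 groups, so AOM+DSS a and b lay above control while AOM+DSS c lay below every control library. Smoc2, a secreted matrix protein of the same stem cells, had 679.8, 949, 562 and 521 in DSS, 2446, 2763 and 1004 in AOM+DSS and 1648, 1173 and 2091 in control, with AOM+DSS above DSS in all libraries but no call (adjusted p = 0.0793; 0.0237 without AOM+DSS c and 0.170 to 0.505 without any other single library). Without AOM+DSS c 4 stem cell genes were called, and without any other single library 0. Proliferation genes were not called: of 28 genes of proliferation and DNA replication, limma called 0, 3 were higher at an unadjusted p under 0.05, the authors' form of the test called 0, and the median was 0.05. Mki67, the proliferation antigen, had 6165, 6412, 7063 and 6262 in DSS and 7672, 5137 and 4463 in AOM+DSS with overlap (adjusted p = 0.682), and Top2a, the topoisomerase of dividing cells, had 3109.6, 2907, 2681 and 2702 in DSS and 4607, 4345 and 2159.8 in AOM+DSS (adjusted p = 0.654; 0.0388 without AOM+DSS c and 0.579 to 0.959 without any other single library).

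Paneth cell products had the highest median difference of the 52 gene lists, 5.22: of 14 tested genes 9 were called higher and 0 lower (the authors' form of the test called 6 higher). The called genes were Lyz1, Mmp7, Habp2 and the alpha-defensins Defa5, Defa17, Defa20, Defa21, Defa22 and Defa26, of which Defa5 and Defa26 stayed under a mean of 50. Alpha-defensins are membrane-disrupting peptides stored in Paneth granules. Defa20 had 0 reads in all DSS and all control libraries and 599, 393 and 476 normalized reads in AOM+DSS a to c, at least 632-fold higher when the DSS group is given the 3 reads that a count of 0 allows over the group (limma, adjusted p = 5.22e-05). Defa21 likewise had 0 reads in DSS and 120.5, 100.1 and 97.2 in AOM+DSS, at least 137-fold higher (adjusted p = 2.14e-04), and Defa17 had 0 and 120.5, 106 and 71.8, at least 131-fold higher (adjusted p = 2.66e-04). Defa22 had 1 read in DSS and 172, 98.4 and 109 in AOM+DSS (adjusted p = 8.76e-04). Unlike the Wnt antagonists, these defensins had like levels in all 3 AOM+DSS libraries. Alpha-defensin genes are near-identical copies, so reads of one may have been assigned to another, and their separate levels are uncertain.

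The promoters of the defensins are shown because those of Defa20 and Defa21, which had no DSS read, and of Defa22, which had 1, are nearly the same letter for letter, and because TCF sites in defensin promoters are known targets of Wnt signalling. They are the 250 bases before the start, from RefSeq on the forward strand of GRCm38.p6, for Defa20 at chr8:21509008-21509257 and for Defa21 at chr8:21025295-21025544. The capitals mark a TCF motif, searched on both strands as CTTTGAA with A or T allowed at each of the last 2 letters. Each of these promoters holds it 2 times in the form ATCAAAG, at 112 and 72 bases before the start. The Defa22 promoter equals that of Defa21 over all 250 bases, and that of Defa20 differs from them at 5 (98.0% the same).
Defa20: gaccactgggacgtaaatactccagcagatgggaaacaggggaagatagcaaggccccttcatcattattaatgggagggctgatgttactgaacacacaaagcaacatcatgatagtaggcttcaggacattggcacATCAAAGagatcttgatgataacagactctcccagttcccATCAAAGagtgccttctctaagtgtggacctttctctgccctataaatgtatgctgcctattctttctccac
Defa21: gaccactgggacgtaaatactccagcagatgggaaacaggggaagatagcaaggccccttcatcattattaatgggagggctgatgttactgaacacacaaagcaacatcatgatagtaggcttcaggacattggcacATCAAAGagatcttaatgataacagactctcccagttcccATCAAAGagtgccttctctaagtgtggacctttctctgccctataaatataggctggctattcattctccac
The promoter of Sp5, at chr2:70474673-70474922 on the forward strand, is shown as that of a called Wnt target and holds the motif at 222 bases before the start as AACAAAG and at 104 as CTTTGAT.
Sp5: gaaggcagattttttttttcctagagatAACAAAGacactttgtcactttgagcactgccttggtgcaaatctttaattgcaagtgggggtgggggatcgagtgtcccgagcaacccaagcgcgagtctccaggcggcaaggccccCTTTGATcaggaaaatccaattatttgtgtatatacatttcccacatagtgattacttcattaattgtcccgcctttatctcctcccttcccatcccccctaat
Of all 32851 RefSeq promoters of this length, 14.8% held the motif at least once and 1.43% at least 2 times. Among the genes tested 13.7% of the 13281 with a promoter held it, with 1.17% at least 2 times. Among the genes called higher 44 of the 212 with a promoter held it (20.8%), with 10 (4.72%) at least 2 times. Defa20, Defa21, Defa22 and Sp5 were among these 10. The defensin promoters are near-identical copies, so these genes are not independent, and the shares were not tested. A gene counted as holding the motif where the window of any of its starts did, and the number of starts per gene was not matched. The windows of Nkd1, Wif1, Dkk2, Axin2 and Lyz1 held no match. For Mmp7 and Tnfrsf19, the window of 1 start held 0 matches and that of another start held 1. A match is a run of letters and does not show binding.

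Lyz1, the lysozyme of Paneth cells, had 273, 152, 85.0 and 83.8 normalized reads in DSS, 7786, 15912 and 2342 in AOM+DSS and 34.8, 247 and 33.9 in control, a ratio of AOM+DSS to DSS means of 58.5 and a log2 difference of 5.65 ± 0.63 (limma, adjusted p = 0.00421). Mmp7, the metalloproteinase that matures defensins in mouse Paneth cells, had 109, 82.4, 17.0 and 63.6 in DSS and 3267, 6783 and 1075 in AOM+DSS, a ratio of 54.5 (5.65 ± 0.72, adjusted p = 0.00865). Habp2, a secreted serine protease, had 0 reads in DSS and 173, 285 and 38.7 normalized reads in AOM+DSS, at least 226-fold higher (adjusted p = 0.00194). Lyz1, Mmp7 and Habp2 were highest in AOM+DSS b and lowest in c, and none of their groups overlapped. Pla2g2a, a bactericidal phospholipase of Paneth cells, had 348, 543, 799 and 797 in DSS and 2491, 4917 and 1304 in AOM+DSS and narrowly missed the threshold (adjusted p = 0.0567; 0.0485 without AOM+DSS c and 0.171 to 0.345 without any other single library). Other secretory defence proteins did not move together: Itln1, a lectin that binds microbial sugars, had 89.3, 119, 739 and 1024 in DSS and 1041, 1760.2 and 1392 in AOM+DSS (adjusted p = 0.307), and Ang4, an antimicrobial ribonuclease, had 865, 901, 9332 and 12135 in DSS and 1177, 2108 and 4068 in AOM+DSS (adjusted p = 0.848). For both genes DSS a and b were far below DSS c and d. The count of 9 Paneth genes was 10 without AOM+DSS c and 5 to 8 without any other single library, lowest without AOM+DSS a.

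**Figure D3:**
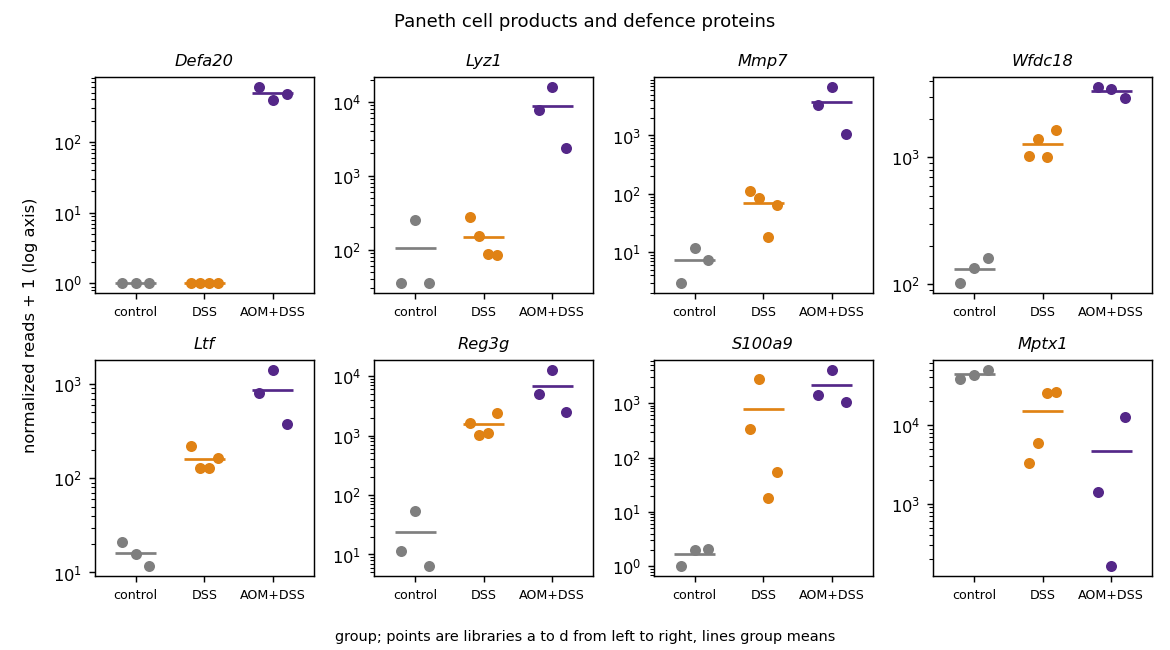
Normalized reads plus 1 (vertical log axis) of Paneth cell products and other defence proteins in each control, DSS and AOM+DSS library; points are libraries and lines group means. Defa20 is at 0 reads in all control and DSS libraries, Lyz1, Mmp7, Wfdc18, Ltf and Reg3g lie higher in every AOM+DSS library than in any DSS library, and S100a9 and Mptx1 overlap.

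Of 32 antimicrobial and acute phase genes tested, 3 were called higher and 0 lower (Lyz1, Wfdc18 and Ltf), with a median of 0.62, while the authors' form of the test called 1. Wfdc18, a small secreted protein of the whey acidic family, had 1016, 1386, 1004 and 1653 normalized reads in DSS, 3598, 3481 and 2944 in AOM+DSS and 100.4, 132 and 161 in control, so it was above control in DSS and higher again in AOM+DSS (1.43 ± 0.19, limma, adjusted p = 0.0109). Ltf, the iron-binding lactoferrin, had 219.7, 126, 126 and 163 in DSS and 794, 1408 and 373 in AOM+DSS (2.27 ± 0.41, adjusted p = 0.0327). The epithelial lectins Reg3b and Reg3g, which kill or hold off bacteria, lay above DSS in every AOM+DSS library without a call: Reg3g had 1604, 1024, 1083 and 2434 in DSS and 5077, 12618 and 2509 in AOM+DSS (adjusted p = 0.126), and Reg3b had 2095, 372, 1093 and 2223 in DSS and 5665, 20104 and 3099.9 in AOM+DSS (adjusted p = 0.160). In both, AOM+DSS b was more than 2-fold above the other AOM+DSS libraries. Retnlb, a goblet cell protein against bacteria, had 1194, 569, 9672 and 11444 in DSS and 1057, 2906 and 3425 in AOM+DSS, inside the range of DSS (adjusted p = 0.882). Mptx1, a mucosal pentraxin, had 38621, 43161 and 49488 in control, 3255, 5952, 25164 and 26338 in DSS and 1407, 160.5 and 12459 in AOM+DSS, where the libraries were spread widely and overlapped DSS (adjusted p = 0.416). The list had 5 called genes without AOM+DSS c and 0 or 1 without any other single library.

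Some genes of the stomach lining were higher in AOM+DSS. Of 10 gastric-type mucins and trefoil factors tested, 3 were higher (Muc6, Gkn1 and Gkn3) and 0 lower, with a median of 1.27, and Gkn1 and Gkn3 stayed under a mean of 50. Muc6, the gel-forming mucin of gastric glands, had 15.02, 18.1, 28.3 and 12.4 normalized reads in DSS and 119, 93.5 and 64.1 in AOM+DSS (2.28 ± 0.41, limma, adjusted p = 0.0327). Among 30 intestinal identity and Hox factors, 2 were higher (Gata5 and Sox21) and 0 lower, with a median of -0.01 (2 higher and 1 lower by the authors' form of the test). Gata5, a zinc finger factor of gut endoderm, had 15.02, 42.8, 21.2 and 26.4 in DSS and 321, 322 and 215 in AOM+DSS (3.46 ± 0.39, adjusted p = 0.00421), and Sox21 had 114, 131, 132 and 127.2 in DSS and 598, 502 and 256 in AOM+DSS (1.75 ± 0.29, adjusted p = 0.0215). Onecut2, a homeobox factor, had 7.90, 5.77, 4.25 and 6.20 in DSS and 133, 167 and 130.4 in AOM+DSS (4.38 ± 0.37, adjusted p = 0.00115), with the 3 AOM+DSS libraries close together. At an unadjusted p under 0.05, 5 of the 30 were higher and 5 lower, against 1701 and 602 of all 18364 genes tested. Hoxd13, which marks the hindgut, had 2247, 1959 and 2387 in control, 1419, 1387, 1494 and 1241 in DSS and 1121, 443 and 883 in AOM+DSS, below every DSS library but not called (adjusted p = 0.217), and Foxa2, a factor of secretory cells, had 876, 1010.1, 1088 and 861 in DSS and 614, 410.3 and 717 in AOM+DSS (adjusted p = 0.123). Without single libraries the gastric count was 0 to 2, with 0 without AOM+DSS a, and the identity count was 0 (without AOM+DSS a or b) to 4 (without AOM+DSS c).

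Some matrix proteases and the inhibitor Timp2 were higher in AOM+DSS. Of 20 metalloproteinases and plasminogen system genes tested, 7 were called higher (Mmp2, Mmp7, Mmp10, Mmp11, Mmp12, Timp2 and Plat) and 0 lower, with a median of 2.46 (the authors' form of the test called 5 higher), and Mmp10 stayed under a mean of 50. Mmp12, the macrophage elastase, had 39.5, 13.2, 2.83 and 6.20 normalized reads in DSS and 318, 609 and 236 in AOM+DSS (4.998 ± 0.75, limma, adjusted p = 0.0164). Mmp11, a stromelysin of tumour stroma, had 10.3, 8.24, 4.25 and 6.20 in DSS and 64.0, 72.8 and 38.7 in AOM+DSS (2.86 ± 0.45, adjusted p = 0.0179). Mmp2, a gelatinase, had 18.2, 19.8, 11.3 and 10.9 in DSS and 61.7, 82.7 and 173 in AOM+DSS (2.64 ± 0.46, adjusted p = 0.0279). Here AOM+DSS c was the highest library for Mmp2 and the lowest for Mmp11 and Mmp12. Timp2, an inhibitor of these enzymes, had 139.9, 70.9, 60.9 and 54.3 in DSS and 337, 482 and 313 in AOM+DSS (2.27 ± 0.35, adjusted p = 0.0168), and Plat, the tissue plasminogen activator, had 217, 121, 72.2 and 119 in DSS and 982, 2217 and 380.0 in AOM+DSS (2.93 ± 0.56, adjusted p = 0.0399). Their groups did not overlap. Without a single library the list had 0 (without AOM+DSS a) to 4 called genes (without AOM+DSS c).

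Genes of fetal and regenerating epithelium and of the YAP pathway, which both mark repair, were higher than in DSS for some members. In the fetal list 6 of 21 tested were higher, among them Il33, Ctgf, Cyr61, Ankrd1 and Basp1, and 0 lower, median 0.58. In the YAP list 5 of 20 were higher (Wwtr1, Tead2, Ctgf, Cyr61 and Ankrd1), 0 lower, median 0.81. In each of these lists the authors' form of the test called 4 higher. The lists share Ctgf, Cyr61 and Ankrd1, and Ankrd1 stayed under a mean of 50. Ctgf, a matrix-associated YAP target, had 3.95, 4.12, 2.83 and 1.55 normalized reads in DSS and 209.7, 227 and 108 in AOM+DSS (5.45 ± 0.46, limma, adjusted p = 0.00112), while the related Cyr61 had 80.6, 93.1, 60.9 and 66.7 in DSS and 222, 265 and 183 in AOM+DSS (1.56 ± 0.25, adjusted p = 0.0215). All AOM+DSS values of both genes lay above all DSS values.

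Wwtr1, which encodes the YAP partner TAZ, had 12.6, 14.0, 7.08 and 4.65 normalized reads in DSS and 123, 246 and 65.2 in AOM+DSS (3.69 ± 0.56, limma, adjusted p = 0.0167). Tead2, a DNA-binding partner of YAP and TAZ, had 138, 124, 187 and 185 in DSS and 695, 749 and 326 in AOM+DSS (1.82 ± 0.31, adjusted p = 0.0256). Basp1, a membrane-bound signalling protein, had 83.0, 95.6, 17.0 and 26.4 in DSS and 615, 861 and 254 in AOM+DSS (3.52 ± 0.66, adjusted p = 0.0355). For Basp1 the DSS libraries split, with a and b above c and d. Clu, a chaperone of revival stem cells, had 492, 847 and 489 in control, 1851, 2876, 838 and 1821 in DSS and 6143, 4412 and 3422 in AOM+DSS and was not called (adjusted p = 0.126), although every AOM+DSS library lay above every DSS library. Krt17, a keratin of stressed squamous epithelium, had 2 reads in DSS and 127.9, 76.1 and 34.2 normalized reads in AOM+DSS (5.79 ± 0.59, adjusted p = 0.00295), and 0 of 13 squamous and anal epithelium genes of the list were called (limma; 3 were higher at an unadjusted p under 0.05, and the authors' form of the test called 0). H19, an imprinted fetal transcript, had 4 reads in DSS and 712, 104 and 67.4 normalized reads in AOM+DSS, with library a far above b and c (6.49 ± 0.84, adjusted p = 0.00877). Without AOM+DSS c the fetal count was 3 and the YAP count 6, and without any other single library each was 1 or 2.

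Of 26 BMP and TGF-beta genes tested, 2 were higher (Fst and Inhbb) and 0 lower, median 0.73. Fst encodes follistatin, which binds activins, and Inhbb encodes an activin subunit. Fst had 2.37, 3.30, 1.42 and 0 normalized reads in DSS and 65.4, 117 and 29.8 in AOM+DSS (4.68 ± 0.65, limma, adjusted p = 0.0124), and Inhbb had 3.16, 4.94, 1.42 and 0 in DSS and 68.4, 95.9 and 44.2 in AOM+DSS (4.60 ± 0.65, adjusted p = 0.0128). Both the activin subunit and its binding protein were near 0 in DSS and present in every AOM+DSS library. The count was 3 without AOM+DSS c and 0 or 1 without any other single library.

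Some inflammatory signals passed the test, against 1.66% called higher over all genes tested. At an unadjusted p under 0.05, 9 of the CXC genes below were higher and 1 lower. Of the interleukin list 8 were higher and 0 lower at that level. Over all 18364 genes tested, 1701 were higher and 602 lower. Of 19 CXC chemokines and receptors 2 were called higher (Cxcl5 and Cxcl14), median 1.36, and of 30 interleukins, TNF members and receptors 2 (Il33 and Csf1), median 0.44, with 0 lower in both, while the authors' form of the test called 1 in each. Cxcl5, an epithelial attractant of neutrophils, had 105, 133, 136 and 295 normalized reads in DSS, 1448, 2094 and 609 in AOM+DSS and 25.1, 15.8 and 24.4 in control (2.99 ± 0.46, limma, adjusted p = 0.0168). Cxcl14, a chemokine that healthy epithelium also makes, had 2.37, 4.94, 0 and 6.20 in DSS and 66.9, 84.4 and 118 in AOM+DSS (4.67 ± 0.69, adjusted p = 0.0152). Il33, an alarmin released by damaged cells, had 28.5, 34.6, 11.3 and 20.2 in DSS, 396, 639 and 88.4 in AOM+DSS and 58.9, 84.9 and 56.1 in control (3.63 ± 0.67, adjusted p = 0.0337). Il33 was lower in every DSS library than in any control library, and above control in every AOM+DSS library. Csf1, the growth factor of macrophages, had 100.4, 84.0, 86.4 and 63.6 in DSS and 517, 505 and 218 in AOM+DSS (2.21 ± 0.34, adjusted p = 0.0167). Without AOM+DSS c the interleukin count was 5, and without any other single library it was 0. The CXC count was 2 without AOM+DSS c and 0 or 1 without any other.

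Among 33 interferon-stimulated genes 2 were called higher (Gbp3 and Ido1) and 0 lower, median 0.25. At an unadjusted p under 0.05, 12 of the 33 were higher and 0 lower. Wholly above DSS lay 10 of the 33, against 6.87% of the included genes tested. Gbp3, a GTPase against intracellular microbes, had 114, 246 and 183 normalized reads in control, 705, 506, 787 and 577 in DSS and 1452, 1506 and 1022 in AOM+DSS (1.04 ± 0.20, limma, adjusted p = 0.0372). Ido1, which opens the kynurenine pathway of tryptophan breakdown, had 651, 188, 353 and 490.1 in DSS and 1882, 7176 and 1540 in AOM+DSS, with AOM+DSS b far above a and c (2.85 ± 0.57, adjusted p = 0.0464). The GTPases Igtp and Iigp1 lay above DSS in every AOM+DSS library without a call: Iigp1 had 858, 277, 656 and 534 in DSS and 2419, 2897 and 1256 in AOM+DSS (adjusted p = 0.0526), and Igtp had 1872, 1196, 1651 and 1843 in DSS and 3423, 3473 and 2338 in AOM+DSS (adjusted p = 0.0700). Antigen presentation by MHC class II, which was above control in both groups, gave no call: limma called 0 of 11 genes, 3 were lower at an unadjusted p under 0.05, the authors' form of the test called 0, and the median was -0.09. Cd74, the class II invariant chain, had 1223, 9632 and 812 in control, 25470, 15564, 23232 and 27688 in DSS and 22152, 20297 and 21856 in AOM+DSS (adjusted p = 0.912). The interferon count was 3 without AOM+DSS c and 0 without any other single library.

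Of 18 complement genes 6 were called higher (C1qa, C1qb, C1qc, C4b, Cfi and Serping1) and 0 lower, median 2.09, while the authors' form of the test called 3. Cfi, the plasma protease that inactivates C3b and C4b, had 1.58, 2.47, 7.08 and 1.55 normalized reads in DSS and 223, 328 and 108 in AOM+DSS (5.76 ± 0.57, limma, adjusted p = 0.00275). C1qa, a chain of the starter complex of the classical pathway that macrophages make, had 147, 124, 58.1 and 57.4 in DSS, 362, 663 and 551 in AOM+DSS and 25.1, 164 and 6.36 in control (2.52 ± 0.39, adjusted p = 0.0177). C1qb had 134, 115, 52.4 and 63.6 in DSS and 346, 745 and 361 in AOM+DSS (2.41 ± 0.40, adjusted p = 0.0245), and C1qc had 98.0, 94.8, 36.8 and 26.4 in DSS and 271, 562 and 366 in AOM+DSS (2.77 ± 0.50, adjusted p = 0.0327). For each of the 3 C1q chains every AOM+DSS library lay above every DSS library. Control b, at 164, 135.3 and 125.4 for C1qa, C1qb and C1qc, also lay above every DSS library. C4b, the fourth complement component, had 93.3, 62.6, 51.0 and 55.8 in DSS and 183, 325 and 313 in AOM+DSS (2.04 ± 0.31, adjusted p = 0.0170). The C1q chains were the only called genes of the 20 macrophage and dendritic cell genes (3 higher, 0 lower, median 1.32; 2 higher by the authors' form of the test), whose summed level was 13909 to 18460 in AOM+DSS and 9969 to 15908 in DSS, with overlap; the part of macrophage number in the complement values was not tested. Without a single library the complement count was 0 (without AOM+DSS a) to 2 (without AOM+DSS c), and the macrophage count was 0.

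Of 19 prostaglandin and lipoxygenase genes 2 were higher (Alox12 and Alox15) and 0 lower, median 0.14, while the authors' form of the test called 1. Alox12 and Alox15 encode lipoxygenases, which oxidise arachidonic acid. Alox12 had 1.58, 4.94, 2.83 and 6.20 normalized reads in DSS and 362, 353 and 119 in AOM+DSS (5.78 ± 0.56, limma, adjusted p = 0.00233), and Alox15 had 25.3, 25.5, 26.9 and 20.2 in DSS and 292, 447 and 72.9 in AOM+DSS (3.07 ± 0.57, adjusted p = 0.0337). Ptgs2, the inducible cyclooxygenase, showed no such order: its levels were 557, 1294, 1.42 and 4.65 in DSS and 161, 342 and 56.3 in AOM+DSS, all AOM+DSS values falling between the high DSS libraries a and b and the low c and d (adjusted p = 0.802). The prostaglandin count was 3 without AOM+DSS c, 0 without AOM+DSS a or b and 1 without any single DSS library.

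What AOM+DSS crypts had less of included B cell transcripts. Among the 8 genes called lower were Pax5, Cd22, Siglecg, Haao, Acap1, Dok3 and Dnahc8. Pax5, the factor that commits cells to the B lineage, had 283, 187, 193 and 253 normalized reads in DSS, 29.7, 4.96 and 45.3 in AOM+DSS and 5.79, 19.8 and 7.41 in control, a ratio of AOM+DSS to DSS means of 0.117 (-3.47 ± 0.63, limma, adjusted p = 0.0327). Limma also called 2 inhibitory B cell lectins lower. Cd22 had 1938, 484, 428 and 343 in DSS and 68.4, 34.7 and 102 in AOM+DSS (-3.27 ± 0.60, adjusted p = 0.0332). Siglecg had 713, 224, 178 and 216 in DSS and 29.7, 18.2 and 56.3 in AOM+DSS (-3.12 ± 0.54, adjusted p = 0.0271). In these 3 genes every AOM+DSS library lay below every DSS library, and DSS a was the highest. The authors' form of the test called Pax5 (adjusted p = 1.91e-10) but not Cd22 (0.787) or Siglecg (0.445). With any 1 library left out, limma called neither Cd22 nor Siglecg (lowest adjusted p 0.0784 and 0.0511). Pax5 was still called without AOM+DSS b or c (limma, adjusted p = 0.0493 and 0.0415).

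Cd79a and Cd79b, the signalling chains of the B cell receptor, had the same order without a call: Cd79a had 2486, 746, 408 and 396 normalized reads in DSS and 111, 63.7 and 288 in AOM+DSS (limma, adjusted p = 0.142), and Cd79b had 1819.6, 492, 348 and 392 in DSS and 70.6, 28.9 and 178 in AOM+DSS (adjusted p = 0.0774). Over the list of 17 B and plasma cell genes 0 were higher and 2 lower, Pax5 among them (1 lower by the authors' form of the test), with a median of -1.69. Of the 17, 9 lay wholly below DSS, against 4.51% of the included genes tested. The summed list did not separate the groups: it was 21361, 14487, 7787 and 9261 in DSS a to d and 7904, 7130 and 11581 in AOM+DSS a to c. Spib, a factor of B cells and of the epithelial M cells over lymphoid follicles, had 1332, 1146, 591 and 706 in DSS and 300.4, 86.0 and 449.6 in AOM+DSS (adjusted p = 0.130). The 21 T and NK cell genes had no call (limma; at an unadjusted p under 0.05, 1 higher and 0 lower; none by the authors' form of the test; median -0.44), and their sum was 7574 in DSS a against 1997 to 2289 in the other DSS libraries and 1834 to 2587 in AOM+DSS. Lck, a kinase of T cells, had 1202, 227, 253 and 288 in DSS and 161, 132 and 199.96 in AOM+DSS (adjusted p = 0.399). How far lymphoid tissue in DSS a, or in the DSS group, took part in the lower genes was not tested.

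Among the other lower genes, Haao, Acap1 and Dok3 were highest in DSS a, as Pax5, Cd22 and Siglecg were. Haao, an enzyme late in the kynurenine pathway, had 172, 70.0, 59.5 and 80.7 normalized reads in DSS and 15.6, 9.10 and 18.8 in AOM+DSS (-2.56 ± 0.46, limma, adjusted p = 0.0321). Ido1, at the start of this pathway, was called in the opposite direction. Neither was called without any single library (limma, lowest adjusted p 0.0861 for Ido1 and 0.0624 for Haao). The authors' form of the test called neither (adjusted p = 0.862 and 0.178). Acap1, a regulator of Arf GTPases that lymphocytes express, had 1279, 459, 568 and 611 in DSS and 161, 151 and 263 in AOM+DSS (-1.85 ± 0.35, adjusted p = 0.0372), and Dok3, an adaptor of B cells and myeloid cells, had 605, 347, 358 and 371 in DSS and 112, 146 and 169 in AOM+DSS (-1.53 ± 0.25, adjusted p = 0.0208). Dnahc8, an axonemal dynein heavy chain, had a DSS level near control: it had 593, 824 and 1087 in control, 775, 779, 821 and 649.9 in DSS and 421, 332 and 469.5 in AOM+DSS (-0.90 ± 0.16, adjusted p = 0.0293). Without AOM+DSS c 4 of the 8 were still called, without AOM+DSS b 1, and without AOM+DSS a or any single DSS library 0.

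Some genes of the fibroblast and matrix list were higher in AOM+DSS, and others stood out in 1 library. Of 21 fibroblast and matrix genes 2 were called higher (Fn1 and Mgp) and 0 lower, with a median of 2.47. The summed level was 7578 to 10163 in AOM+DSS and 1000 to 2446 in DSS, without overlap. It was 856, 3914 and 870 in control a to c, so control b lay above every DSS library. Mgp, the matrix Gla protein that binds calcium and BMPs, had 0, 4.12, 7.08 and 1.55 normalized reads in DSS and 610.5, 1394 and 439 in AOM+DSS (7.81 ± 0.74, limma, adjusted p = 0.00207). Fn1, fibronectin, had 99.6, 103, 211 and 214 in DSS and 3205, 3864 and 1241 in AOM+DSS (4.07 ± 0.44, adjusted p = 0.00366). Control b, at 40.5 for Mgp and 402 for Fn1, was above every DSS library for both genes. Further matrix proteins with large differences were outside this list. Thbs2, a thrombospondin that inhibits vessel growth, had 1.58, 1.65, 1.42 and 0 in DSS and 837, 666 and 160.2 in AOM+DSS (7.80 ± 0.66, adjusted p = 0.00112), and Spock2, a testican proteoglycan, had 30.8, 15.7, 8.496 and 6.20 in DSS and 3266, 3297 and 313 in AOM+DSS (6.76 ± 0.86, adjusted p = 0.00819). In all of these AOM+DSS c was the lowest AOM+DSS library. Which cells these transcripts came from was not tested.

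Col1a1 and several smooth muscle genes were highest in AOM+DSS c. Col1a1, a fibrillar collagen, had 9.49, 28.01, 5.66 and 15.5 normalized reads in DSS and 77.3, 48.0 and 562 in AOM+DSS (limma, adjusted p = 0.123), and Acta2, the smooth muscle actin, had 34.0, 33.0, 17.0 and 34.1 in DSS and 141, 95.9 and 1550 in AOM+DSS (adjusted p = 0.125). Des, the muscle filament desmin, had 7.11, 6.59, 14.2 and 10.9 in DSS and 5.21, 5.79 and 2617 in AOM+DSS, so the high mean came from library c alone (adjusted p = 0.666), and Tagln, an actin-binding protein of smooth muscle, had 109.9, 115, 90.6 and 107 in DSS and 93.0, 93.5 and 2708 in AOM+DSS (adjusted p = 0.618). The sum of the 14 smooth muscle genes was 16320 in AOM+DSS c, 2105 and 1858 in a and b and 2085 to 2748 in DSS. Limma called 0 of the 14 (1 higher at an unadjusted p under 0.05, none by the authors' form of the test). The 12 mast cell genes summed to 12255 in AOM+DSS c, 1907 and 2527 in a and b and 904 to 2627 in DSS, with 1 called (Tpsab1, a tryptase under a mean of 50; none by the authors' form of the test). Gene by gene the mast cell list was not confined to library c. At an unadjusted p under 0.05, 8 of the 12 were higher and 0 lower, against 1701 and 602 of all 18364 genes tested. The median was 2.83, and 4 of the 12 lay wholly above DSS. Mcpt1, a mucosal mast cell protease, had 491, 127.7, 56.6 and 150.4 in DSS and 300.4, 488 and 4819 in AOM+DSS (adjusted p = 0.318). The part of attached muscle or of mast cells in the results of AOM+DSS c was not tested. Without single libraries the fibroblast count was 0 (without AOM+DSS a or b) to 2.

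Neutrophil and monocyte transcripts gave no call: limma called 0 of 21 genes, 11 were higher at an unadjusted p under 0.05, the authors' form of the test called 0, and the median was 2.05. Over all 18364 genes tested, 1701 were higher at that unadjusted level. S100a8 and S100a9, the calprotectin chains, were at or near 0 in control. S100a8 had 199, 1296, 29.7 and 62.0 normalized reads in DSS and 1119.9, 3729.6 and 679 in AOM+DSS (adjusted p = 0.281), and S100a9 had 335, 2739.6, 17.0 and 52.7 in DSS and 1379, 4036 and 1025 in AOM+DSS (adjusted p = 0.394). DSS b reached the AOM+DSS range while DSS c and d were far below it. Spp1, osteopontin, a phosphoprotein of macrophages and epithelium, had 34.8, 91.5, 0 and 0 in DSS and 495, 1127 and 451 in AOM+DSS, above DSS in every AOM+DSS library but not called (adjusted p = 0.101).

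**Figure D4:**
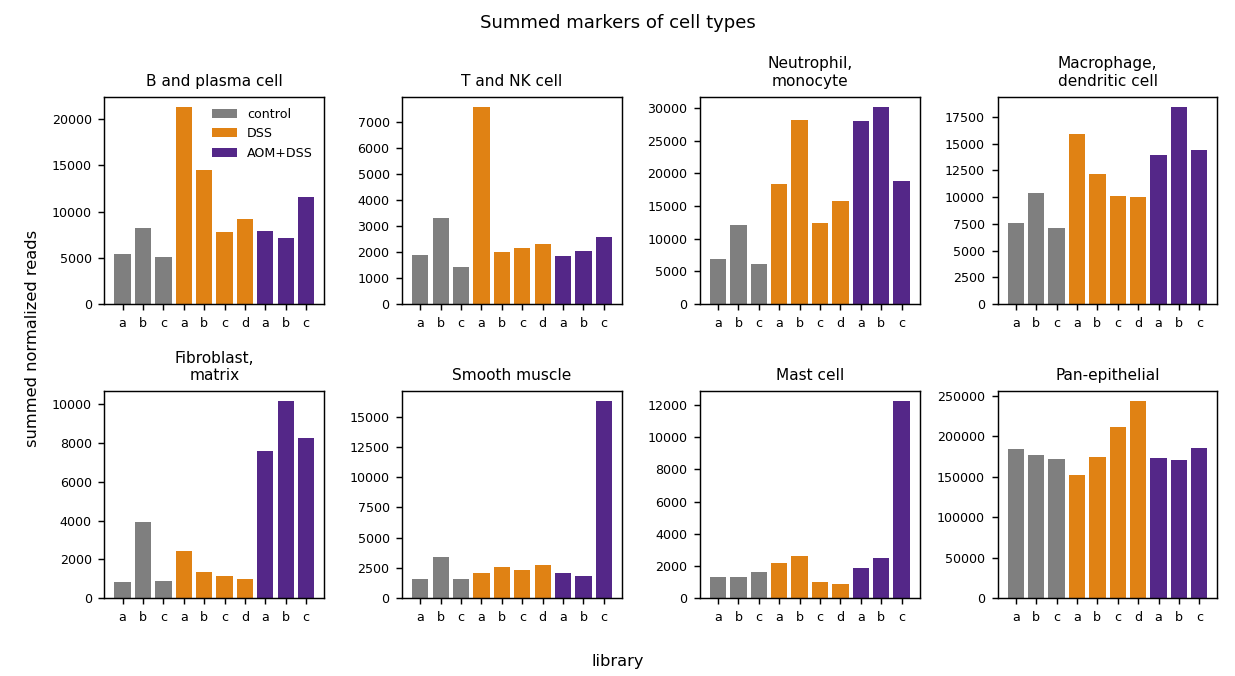
Summed normalized reads of marker lists of 8 cell types (vertical axis) in each library, lettered along the horizontal axis; bars are coloured by group. The fibroblast and matrix sum is higher in all 3 AOM+DSS libraries than in any other library. The smooth muscle and mast cell sums stand out in AOM+DSS c and the T and NK cell sum in DSS a. Pan-epithelial sums range from 152590 to 244020 over all libraries.

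The mature epithelial programmes showed no called losses. Limma called 0 of 23 absorptive colonocyte genes (median -0.31), 0 of 19 goblet cell genes (-0.44), 0 of 21 enteroendocrine genes (-0.57), 0 of 14 tuft cell genes (-0.86) and 0 of 25 genes of butyrate oxidation and ketogenesis (-0.20), against 0.02 over all genes tested. At an unadjusted p under 0.05, 1, 2, 1, 5 and 2 of them were lower and 2, 0, 2, 3 and 1 higher in that order, and the authors' form of the test called 0 in each. Over all 18364 genes tested, 602 were lower and 1701 higher at that unadjusted level. Aqp8, the water channel of surface colonocytes, had 9484, 5866, 23617 and 17693 normalized reads in DSS and 8519.5, 3046 and 15732 in AOM+DSS (adjusted p = 0.658), and Slc5a8, the butyrate transporter, had 9073, 9546, 7107 and 7402 in DSS and 8322, 3129.9 and 7698 in AOM+DSS (adjusted p = 0.581). Atoh1, the factor of the secretory lineage, had 1739.8, 1689, 1372 and 906 in DSS and 1151, 741 and 1389 in AOM+DSS (adjusted p = 0.615). AOM+DSS b was the lowest of the 7 libraries for each of these genes.

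Endocrine genes were also lowest in AOM+DSS b: Chgb, a granule protein of endocrine cells, had 1882, 2057, 1168 and 1056 normalized reads in DSS and 1390.5, 605 and 1476 in AOM+DSS (limma, adjusted p = 0.638), and Pyy, peptide YY, had 963, 1082, 1684 and 1467 in DSS and 809.8, 334 and 1488 in AOM+DSS (adjusted p = 0.521). Of 45 xenobiotic metabolism genes 1 was higher (Cyp2b10, under a mean of 50) and 0 lower, median -0.30, while the authors' form of the test called 1 higher and 2 lower. Cyp2c55, a colonic cytochrome P450, had 9306, 7625, 15757 and 13381 in DSS and 6576, 1208 and 10408 in AOM+DSS (adjusted p = 0.441). Claudins gave 2 higher of 17 (Cldn4, and Cldn18 under a mean of 50), 0 lower, median 0.15, while the authors' form of the test called 0. Cldn4, a tight junction claudin, had 709.6, 539 and 619 in control, 1220.4, 936, 1832 and 2266 in DSS and 5599, 8176 and 3458 in AOM+DSS (1.87 ± 0.35, adjusted p = 0.0367) and was the 1 called gene of 13 pan-epithelial genes (none by the authors' form of the test). Without AOM+DSS c, as without every other single library, the number of pan-epithelial genes called was 0, and that of claudins was 1.

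**Figure D5:**
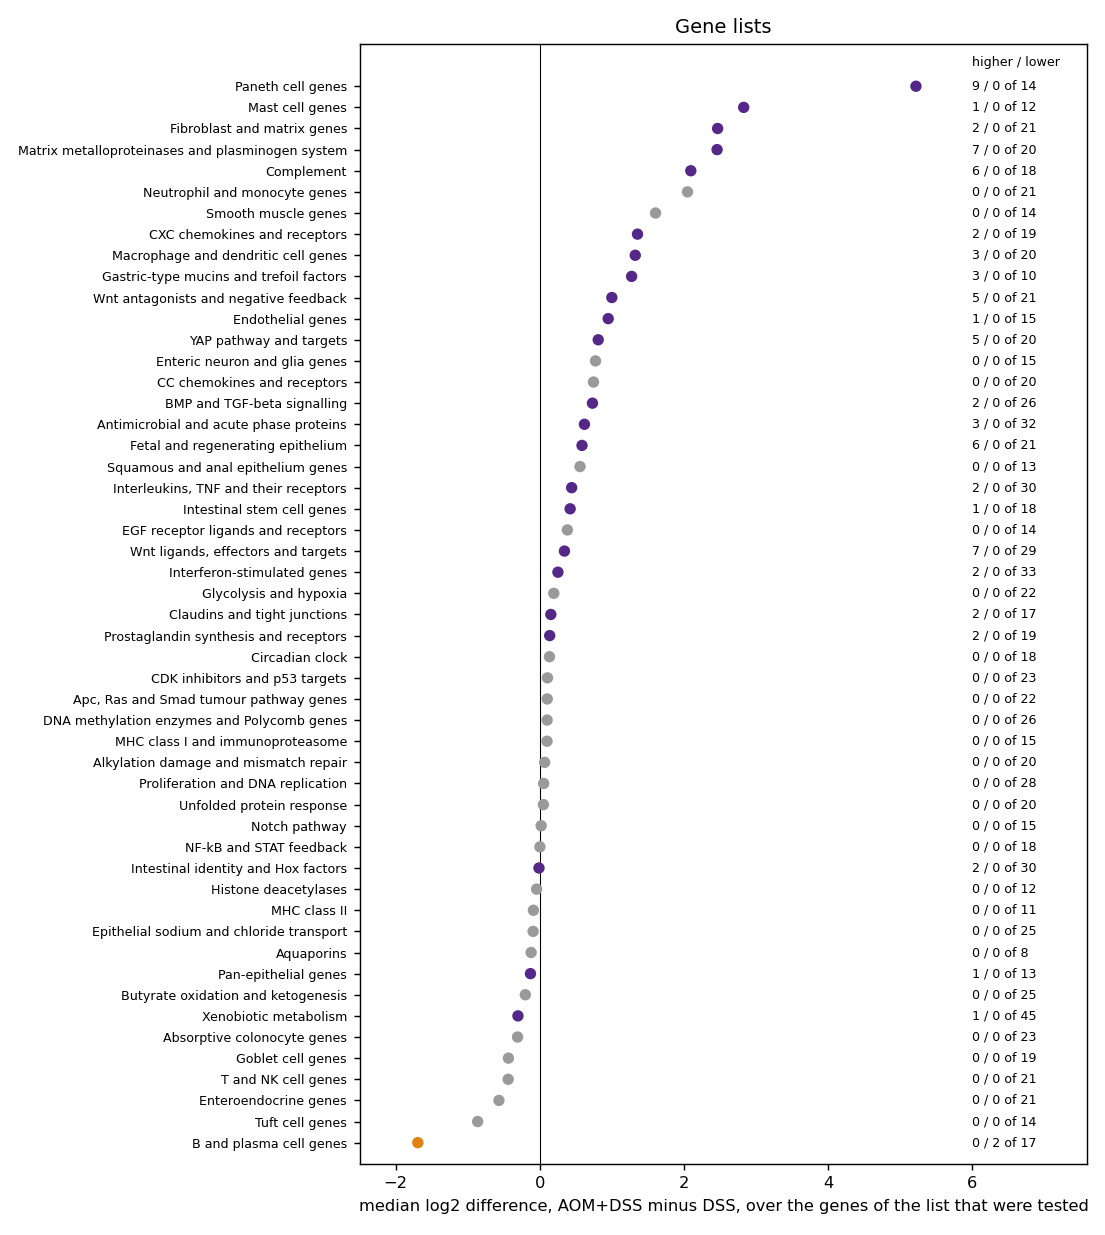
Median log2 difference between AOM+DSS and DSS (horizontal axis) over the tested genes of each of the gene lists with at least 8 tested genes, with the number called higher and lower of those tested at the right; purple lists have a gene called higher, the orange list has genes called lower, grey lists have none. Paneth cell genes lie highest at 5.22 and B and plasma cell genes lowest at -1.69.

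For 16 of the most abundant genes the reads of the DSS libraries could not be recovered, so only the ratio of the deposited means is given, without a test. Dmbt1, a mucosal scavenger glycoprotein, had the highest ratio, 1.33, with means of 139975 in AOM+DSS and 105433 in DSS, and Epcam stood at 1.03. Fcgbp, a goblet cell mucus protein, had the lowest, 0.748, with Krt8, a keratin of simple epithelium, at 0.786, Prdx6, an antioxidant enzyme, at 0.804, Muc2, the colonic gel-forming mucin, at 0.812 and Lypd8, which keeps flagellated bacteria off the epithelium, at 0.842. Pigr, the carrier of IgA, was at 0.890, Hspa8, a chaperone, at 0.887, Eef2, an elongation factor, at 0.966, Hsp90ab1, another chaperone, at 0.972, Ceacam1, an adhesion molecule, at 0.975 and Muc13, a membrane mucin, at 0.952. None of the 16 reached a ratio of 1.5 in either direction.

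At the edge of the threshold on the mean, the genes just outside were Mamld1 (means of 49.9 in AOM+DSS and 16.2 in DSS), Nudt17 (49.9 and 48.0) and Stap1 (8.43 and 49.8), and those just inside were Unc13a (50.1 and 41.5), AU023871 (43.7 and 50.2) and Sgtb (31.2 and 50.2).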

How the data were processed

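Distal colon crypts gave poly(A) RNA for TruSeq RNA v2 libraries, whose kit does not mark strand, per the labels' protocols. The submitters' processing notes name TopHat2 2.0, the mm9 build and DESeq. For the read counter and the annotation, nothing is given in the sources used here. Each of the deposited tables sets a treated group against 3 control libraries. Its signal columns hold group means of counts divided by size factors, per the file headers. Fold changes are ratios of treated to control means and are also given as log2, per the file headers. The deposited p-values come from the authors' DESeq run, per the file headers. The header of one table speaks of 4 replicates of the carcinogen group, but the labels list 3, and the recovered reads were those of 3.

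The digits of the deposited means, with the deposited p-values where several solutions remained, gave the whole reads of every library for 23348 of 23364 genes. The p-values recomputed from these reads matched the deposited ones within a relative 1e-08. For 2602 genes this match was itself the criterion of the recovery, while 20746 genes were solved from the means alone. The relation of spread to mean used for it was fitted to deposited p-values. On log2(normalized reads + 1), limma 3.58.1 (R 4.3.3, with trend) compared 4 DSS with 3 AOM+DSS libraries, with Benjamini-Hochberg adjustment over all 18364 genes with a read. Scripts were tested on simulated data. The authors' form of the test, rebuilt for this pair of groups, was added after the data were seen. Alternatives were another centring, pseudocount, filter, threshold, spread estimate and GC correction, and leaving out libraries.

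The genes compared and the 52 gene lists were chosen with earlier results of these data known. Named genes were the 12 highest and up to 12 lowest differences among called genes whose groups do not overlap, up to 4 called genes per list or the 2 most abundant where none was called, 6 ratios each way among genes not recovered, and Actb, Gapdh and Hprt. A further 34 genes with values were picked outside these criteria with their values in view (Acta2, Ang4, Apcdd1, Axin2, Basp1, Cd79a, Cd79b, Clu, Col1a1, Des, Foxa2, H19, Hoxd13, Igtp, Iigp1, Itln1, Krt17, Mmp2, Mptx1, Onecut2, Pla2g2a, Plat, Ptgs2, Reg3b, Reg3g, Retnlb, Rnf43, S100a8, Smoc2, Sox17, Spp1, T, Wnt3 and Wnt6). Some genes that the criteria select are given only in counts, and some results are not reported here.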

Additional observations from a re-analysis of the deposited data

Results flagged for a closer look

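Among 121 values tested for a DSS library that stands apart from the other 3 by its gap relative to the range of the group, 16 stood apart, 7 of them in DSS a. Chance alone flags about 1 in 20 such groups of 4, and genes of 1 cell type are not independent of each other. The AOM+DSS group, with 3 libraries, was not tested.

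DSS a was high in lymphocyte genes. Its normalized reads were 1938 for Cd22, 2486 for Cd79a, 1820 for Cd79b, 712.98 for Siglecg, 605 for Dok3 and 1202 for Lck, and 7574 for the sum of T and NK cell genes. DSS b was high in the calprotectin chains, with 1296 for S100a8 and 2740 for S100a9, and held the 2 DSS reads of Krt17 (1.65 normalized reads) and the 1 of T (0.824). DSS d was high in Cxcl5 at 294.7, held the 1 DSS read of Defa22 (1.55 normalized reads) and was at 0 for Thbs2. DSS c was low in Acta2 at 17.0 and high in Cfi at 7.08. The flags of Krt17, T, Defa22, Thbs2 and Cfi rest on a few reads.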

How the results depend on the processing

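No paired analysis was possible because letters of the recovered libraries match no replicate number in the labels.

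Higher and lower counts are given in that order for all genes tested (305 and 8 in the test as reported), for genes with a mean of at least 50 in either group (198 and 8) and for the genes of the lists (64 and 2). Leaving out single libraries gave 24 to 506 and 0 to 10 of all genes, 13 to 266 and 0 to 9 of genes with that mean, and 9 to 77 and 0 to 2 of listed genes. Against DSS a and b alone the counts were 3 and 0, 3 and 0, and 2 and 0. Against DSS c and d alone they were 0 and 0 in each case; fewer libraries leave fewer degrees of freedom. The authors' form of the test called 175 and 18 of all genes, of which 137 and 3 were also called by limma, with 18 lower at that mean and 4 lower among listed genes. At an adjusted p under 0.01 the counts were 70 and 0, 56 and 0, and 23 and 0. A pseudocount of 10 left 4 lower in both gene sets, all 3 groups in the fit gave 18 and 17 lower, and a constant prior variance gave 3 lower at that mean and 0 among listed genes. The cause of these moves was not tested. Every other planned setting kept these counts within 1.5 times.

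Of 66 named genes called, 8 were still called without AOM+DSS a, 16 without b and 51 without c, 19 to 23 without a single DSS library, and 47 to 66 under the settings that keep all libraries and limma. The authors' form called 38 of the 62 for which it gives a finite ratio. Of 108 log2 differences, 8 changed sign, none of them of a called gene. Against DSS a and b alone Cd74 was at 0.11, Actb at 0.21, Gapdh at 0.23, Ang4 at 1.29, Retnlb at 1.41 and Ptgs2 at -2.53. Cd74 was at 0.025 after GC correction, and Ptgs2 at -1.31 by the authors' form. Without single libraries Cd74 ranged from -0.25 to 0.031, Actb from -0.24 to 0.015, Gapdh from -0.25 to 0.055, Ang4 from -1.11 to 0.16, Retnlb from -1.22 to 0.23, Ptgs2 from -0.12 to 2.90, Tagln from -0.17 to 2.25 and Des from -0.66 to 3.70. Centring moved the median of all genes by 0.02. For genes with 0 DSS reads the depth sets the bound on the fold.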

Other observations

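Several programmes that tumour biology often links to colon cancer gave no call between AOM+DSS and DSS (limma, adjusted p under 0.05; counts at an unadjusted p under 0.05 follow, and the authors' form of the test called 0 unless given). Among chromatin genes, DNA methylation enzymes and Polycomb genes had 0 of 26 called, 2 higher and 0 lower unadjusted and a median log2 difference of 0.10, and histone deacetylases had 0 of 12, 1 and 1, and -0.04. Alkylation damage and mismatch repair genes, which act on lesions of the kind azoxymethane makes, had 0 of 20, 0 and 0, and 0.07. CDK inhibitors and p53 targets had 0 of 23, 2 and 0, and 0.11, and genes of the Apc, Ras and Smad tumour pathways had 0 of 22, 4 and 1, and 0.10. Over all 18364 genes tested the median was 0.02, with 1701 higher and 602 lower unadjusted.

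Signalling and stress lists were likewise without calls: EGF receptor ligands and receptors (0 of 14, 2 and 0, median 0.38), Notch (0 of 15, 2 and 0, 0.02), NF-kB and STAT feedback (0 of 18, 2 and 0, 0.00), CC chemokines (0 of 20, 7 and 2, 0.74), MHC class I and immunoproteasome (0 of 15, 0 and 0, 0.10), unfolded protein response (0 of 20, 1 and 1, 0.05), circadian clock (0 of 18, 4 and 3, 0.13) and glycolysis and hypoxia (0 of 22, 4 and 0, 0.19, with 2 called higher by the authors' form). Epithelial sodium and chloride transport had 0 of 25, 3 and 0, and -0.09, and aquaporins 0 of 8, 0 and 0, and -0.12. Of other cell types, endothelial genes had 1 of 15 called higher (Prox1) and a median of 0.95, enteric neuron and glia genes 0 of 15, 3 and 0, and 0.77, and adipocyte genes 0 of 6, 0 and 0, and 0.15.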
